A study of Homo sapiens with 10 samples.

Results

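The genes described here lie on chromosome 4 and start beyond position 20 Mb of GRCh38. They were taken from the gene counts by position, with a mean count of at least 100 over the 10 libraries and without genes whose symbols begin with RPL, RPS or NDUF. This left 364 members of 13920 listed genes. A further 51 genes of the region had a mean count under 100, and RPL9, RPL34, RPS3A and NDUFC1 were left out by symbol, from 419 listed in all. The members were chosen by position and mean count, and the region itself was selected on the shift of its genes between experiments in these same counts, so the region-wide values below are descriptions and carry no test. The study measured RNA in spheroids, cell aggregates grown without attachment, of the breast cancer cell line labelled T47D. The wild-type line (WT) was sequenced in experiments 10, 11, 15 and 16. Clone A1, in which SAMHD1 was knocked out by CRISPR-Cas9, was sequenced in the same 4 experiments, and clone A2, made in the same way, in experiments 15 and 16. Libraries of experiments 10 and 11 are called early and those of 15 and 16 late, each pair of values below being given in that order of experiments. Each clone is a single clonal line, and no other treatment or allele is named for any group. The labels give no difference in handling between experiments 10 and 11 and experiments 15 and 16, and they number the experiments without describing the cultures. The study's methods call the samples biological duplicates, and p-values here measure the spread between these libraries.

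Total counts were 40077369 to 51311482 per library. SAMHD1, a dNTP triphosphohydrolase and the targeted gene, had 53.9 and 55.7 CPM in early WT, 49.8 and 56.4 in late WT, 22.5 and 23 in early clone A1, 6.44 and 6.15 in late clone A1, and 23.6 and 20.2 in late clone A2. It was lower in every clone library than in every WT library, and in clone A1 it was lower in experiments 15 and 16 than in 10 and 11 (log2 fold change −1.85, SE 0.10, edgeR adjusted p = 2.37e-09). CPM are the counts scaled to a common library size after TMM normalization. Of 11 luminal markers, 9 were listed, with a summed level of 146 to 176 CPM. KRT19 and TFF1 were not among the listed genes, EPCAM had 0.348 to 1.78 CPM and ESR1, the estrogen receptor, 0.183 to 1.59 CPM. VIM, a mesenchymal intermediate filament gene looked up after these values were seen, had 1175 to 1518 CPM. KRT8 had 3.10 to 9.07 CPM, while KRT18 had 36.3 to 60.3, GATA3 15.4 to 24.8, FOXA1 14.1 to 26.8 and PGR 17.0 to 20.7 in WT and clone A1 and 15.4 to 17.9 in clone A2. Several defining markers of the labelled line were thus unlisted or near 0 and others were present, and the cells are called by their label only. Of the other lists, 0 of 3 basal, 2 of 6 fibroblast, 1 of 4 immune and 1 of 3 endothelial markers were listed. The summed fibroblast level (COL1A1 and COL3A1) was 25.8 and 26.3 CPM in early WT, 20.4 and 18.8 in late WT, 18.6 and 18.6 in early clone A1, 11.7 and 13.7 in late clone A1 and 13.1 and 12.0 in late clone A2. It was thus lower in late than in early libraries of both WT and clone A1, without overlap within a group. The log2 fold change of late against early libraries was −0.87 in WT and −2.10 in clone A1 for COL3A1, and 0.14 and 0.65 for COL1A1. Luminal markers moved both ways between the pairs. In WT and clone A1, ESR1 was at −1.84 and −2.31, KRT18 at −0.38 and −0.39, FOXA1 at 0.34 and 0.70, and EPCAM at 0.97 and 0.95. The part of these changes in the values below was not tested.

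Neighbouring genes along a chromosome mostly serve unrelated functions, yet they share the copy number of the stretch and parts of its chromatin state. The long arm of chromosome 4 holds receptor kinases such as KIT and PDGFRA, chemokine genes, enzymes of nucleotide and lipid metabolism and regulators of cell division. In bulk RNA a change in every cell and a larger change in a fraction of the cells cannot be told apart. Copy number and chromatin were not analysed here.

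Members that share one stretch of DNA between oppositely directed start sites offer a close view of the region, because both genes of such a pair sit in the same place. RefSeq promoter entries were found for 322 of 364 members, and 16 pairs (32 members) had facing starts separated by 42 to 243 bases. The stretches of 3 pairs, chosen after their values were seen, are given from the start of the leftward gene to that of the rightward gene on the plus strand of GRCh38.p14. PPAT and PAICS, neighbouring genes for steps of purine synthesis, are shown because PAICS had the highest counts of all members (chr4:56435616-56435751, using 1 of the PAICS starts that RefSeq lists). UBE2D3, a ubiquitin-conjugating enzyme, and CISD2, a protein of the outer mitochondrial membrane and endoplasmic reticulum, are shown as a pair in which both members were higher (chr4:102868896-102868991). SEC31A, a COPII coat subunit, and THAP9 are shown as the pair that moved least alike (chr4:82900570-82900734). Capitals mark matches on either strand to the CCAAT box, the GC box (GGGCGG), a flanked ETS core (spelled CCGGAAG) and the TATA box (letters TATAAA), and neighbouring GC boxes may overlap.
PPAT-PAICS: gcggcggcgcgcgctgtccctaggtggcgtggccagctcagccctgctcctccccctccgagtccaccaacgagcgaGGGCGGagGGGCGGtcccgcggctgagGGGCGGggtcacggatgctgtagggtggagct
UBE2D3-CISD2: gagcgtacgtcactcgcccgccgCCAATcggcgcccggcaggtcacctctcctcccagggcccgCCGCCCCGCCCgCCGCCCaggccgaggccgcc
SEC31A-THAP9: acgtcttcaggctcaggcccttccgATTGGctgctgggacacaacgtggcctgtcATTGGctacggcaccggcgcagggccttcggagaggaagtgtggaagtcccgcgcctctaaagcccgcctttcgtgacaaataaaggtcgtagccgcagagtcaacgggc
PPAT had a log2 fold change between the experiment pairs of 0.40 in WT and 0.34 in clone A1, and PAICS of 0.52 and 0.66. UBE2D3 had 0.37 and 0.43, and CISD2 0.58 and 0.62. THAP9 had 0.52 and 0.56 where SEC31A had −0.02 and 0.02, although only 165 bases separate their starts. Both genes were above 0 in 15 of the 16 pairs in WT, SEC31A and THAP9 being the exception, and in 16 of 16 in clone A1. The median difference within a pair was 0.12 in WT and 0.19 in clone A1. Over promoter windows of equal length around the start, the GC box occurred in 71.1% of member promoters and 44.6% of the promoters of all 27305 RefSeq genes with an entry. That set includes genes with no counts here and is not matched to the members, whose promoters had a median GC content of 64.7% against 58.3%. The CCAAT box occurred in 35.4% and 35.7%, the ETS core in 13.4% and 10.7%, and the TATA box in 6.5% and 12.0%. These matches describe letters and not bound sites.

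Across the members, RNA levels were higher in experiments 15 and 16 than in 10 and 11, in both WT and clone A1. The members held 1.26% and 1.18% of all counts in WT of experiments 10 and 11, and 1.53% and 1.61% in WT of 15 and 16. In clone A1 they held 1.24% and 1.24%, then 1.67% and 1.78%, and in clone A2 1.74% and 1.85%. The libraries of the later experiments did not overlap with those of the earlier ones. Relative to the mean of WT in experiments 10 and 11, the median member was at a log2 value of 0.36 and 0.41 in WT of 15 and 16, 0.50 and 0.54 in clone A1 and 0.50 and 0.55 in clone A2. In clone A1 of experiments 10 and 11 it was at 0.017 and 0.016. The pooled SD between libraries of the same group and experiment pair was 0.046 on this scale. The median of 11769 genes outside chromosome 4 lay between −0.0084 and 0.0090 in all 10 libraries, which the TMM scaling itself largely sets, so member values are relative to the bulk of the genes. The share of counts from mitochondrial genes was 7.79% to 8.48% in experiments 10 and 11 and 9.05% to 13.9% in 15 and 16, and its part in the shift was not tested.

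**Figure D1:**
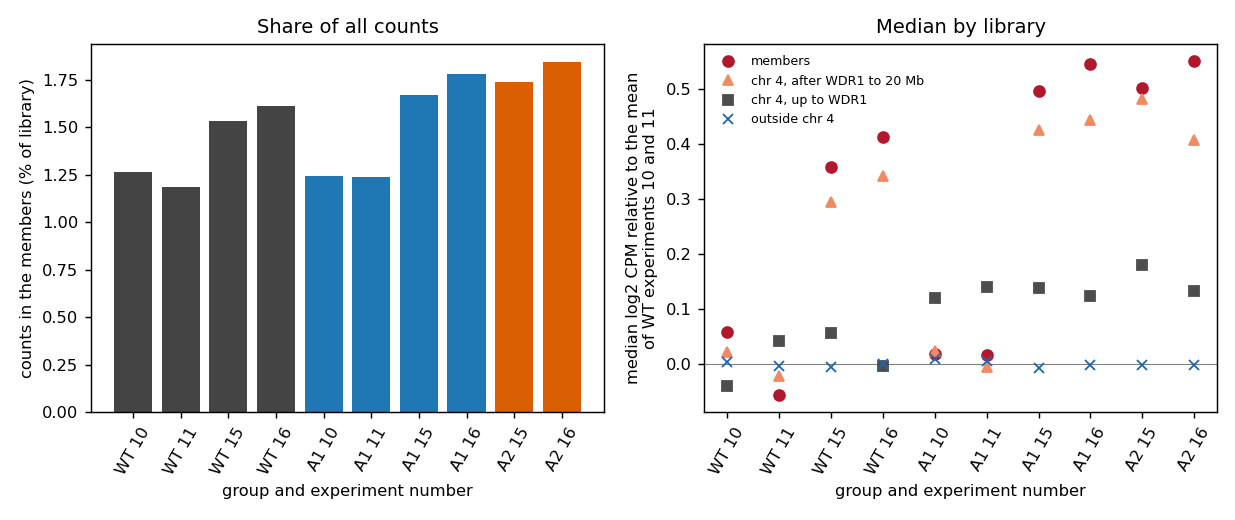
Left, the share of each library's counts in the 364 members (%). Right, the median log2 CPM of each gene set relative to the mean of WT experiments 10 and 11, with 1 point per library. The members and the 16 genes between WDR1 and 20 Mb are high in the 6 libraries of experiments 15 and 16, while the genes outside chromosome 4 stay near 0.

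In WT, the median log2 fold change of the members between the experiment pairs was 0.39 (1.31-fold), with the middle of the distribution between 0.25 and 0.51. It was above 0 for 359 of 364 members. In clone A1, the median was 0.49 (1.41-fold, middle of the distribution 0.35 to 0.70), and 353 of 364 were above 0. These comparisons share no library. In WT, both later libraries exceeded both earlier ones for 319 members and lay under them for 3, where 28.7% and 26.8% of all genes did so. In clone A1 the counts were 344 and 5, against 36.4% and 35.8% of all genes. Both groups showed the higher pattern for 311 members (85.4%), against 21.5% of all genes. The edgeR threshold (adjusted p under 0.05) was passed upwards by 242 members and downwards by 0 in WT (8.61% and 7.74% of all genes), and by 310 and 1 in clone A1 (20.4% and 19% of all genes). In either direction 16.4% and 39.4% of all genes passed in the 2 groups. Because the region was proposed with this shift known, nothing is read from these shares. Without WT of experiment 16 the upward calls in WT were 134, and the downward calls in clone A1 were 0 without A1 of experiment 10 and 2 without WT of experiment 10 or 11. The shift was larger in clone A1 than in WT for 299 members (82.1%). Across members, the values of WT and clone A1 had a Pearson correlation of 0.73, and across genes outside chromosome 4 of 0.78, over 364 and 11769 genes that are not independent.

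**Figure D2:**
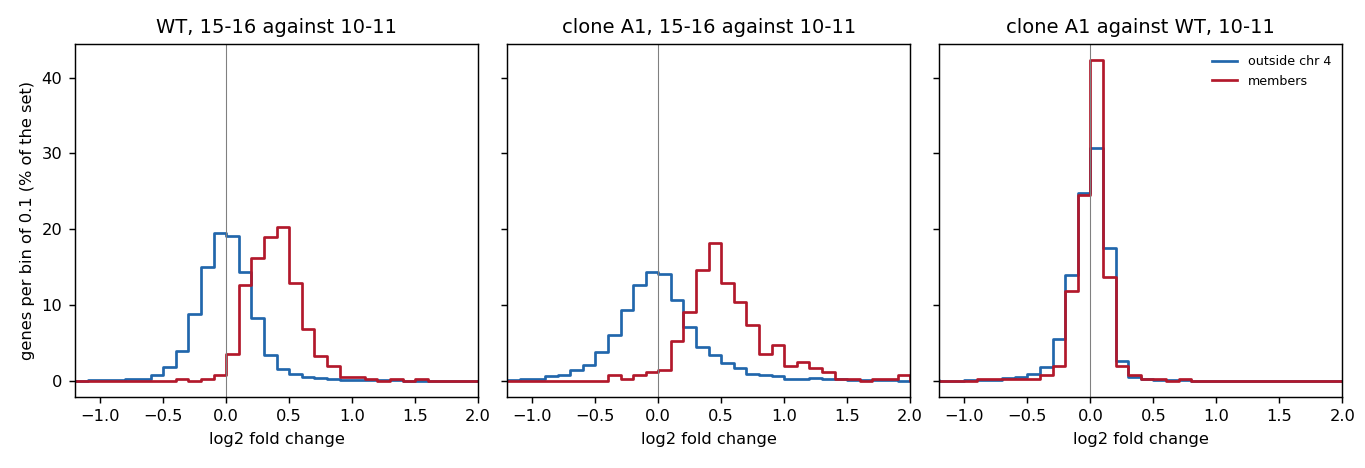
Distribution of log2 fold changes (bins of 0.1, as % of each set) of the 364 members and of 11769 genes outside chromosome 4. Between the experiment pairs the members' distribution lies to the right of the other genes, with medians of 0.39 in WT and 0.49 in clone A1, while in the early comparison of clone A1 with WT both are centred near 0.

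The shift extended over the whole stretch. In 17 windows of 10 Mb, with 5 to 38 members each, the median ran from 0.33 to 0.45 in WT and from 0.40 to 0.67 in clone A1. The highest clone A1 window was 170 to 180 Mb (14 members). The start of the shifted stretch lay before the 20 Mb limit. Up to and including WDR1, an actin-disassembly gene that starts at 10074339, 68 genes had a median of −0.0014 in WT and 0.020 in clone A1. Single genes there moved both ways: ZNF595 was at 1.72 and 2.07 and NSG1 at 0.60 and 0.91 in WT and clone A1, and in clone A1 11 of the 68 passed the threshold upwards and 10 downwards. ZNF518B, the next gene with a mean count of at least 100 (start 10439880), had 0.40 and 0.45. From there to 20 Mb, the 16 genes with such a mean count were above 0 in both groups, with medians of 0.32 and 0.42. The other 3 listed there, with mean counts of 12.6 to 22.3, were below 0 in WT and above 0 in clone A1, with HS3ST1 at −0.09 and 1.51, BST1 at −0.58 and 0.48, and FAM184B at −0.23 and 0.67. Just outside the position limit, DCAF16 had 0.29 and 0.36, NCAPG 0.31 and 0.39, and LCORL 0.58 and 0.59. Just inside it, SLIT2 had 0.03 and 0.27, PACRGL 0.27 and 0.29, and ADGRA3 0.35 and 0.43. Just above the count limit, DDIT4L had 0.57 and 1.03, CCDC110 0.59 and 0.28, and CXCL8 0.61 and 2.34. Their early mean counts were 72, 92.5 and 52.5. They thus met the limit only through the late libraries and had to be higher there, so nothing is read from their values. Just under it, PGCKA1 had 0.44 and 0.96, FHDC1 0.18 and 0.19, and MAPK10 0.99 and 2.02. The genes left out by symbol were also higher, with RPL9 at 0.44 and 0.63, RPL34 at 0.27 and 0.42, RPS3A at 0.38 and 0.47, and NDUFC1 at 0.32 and 0.46.

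**Figure D3:**
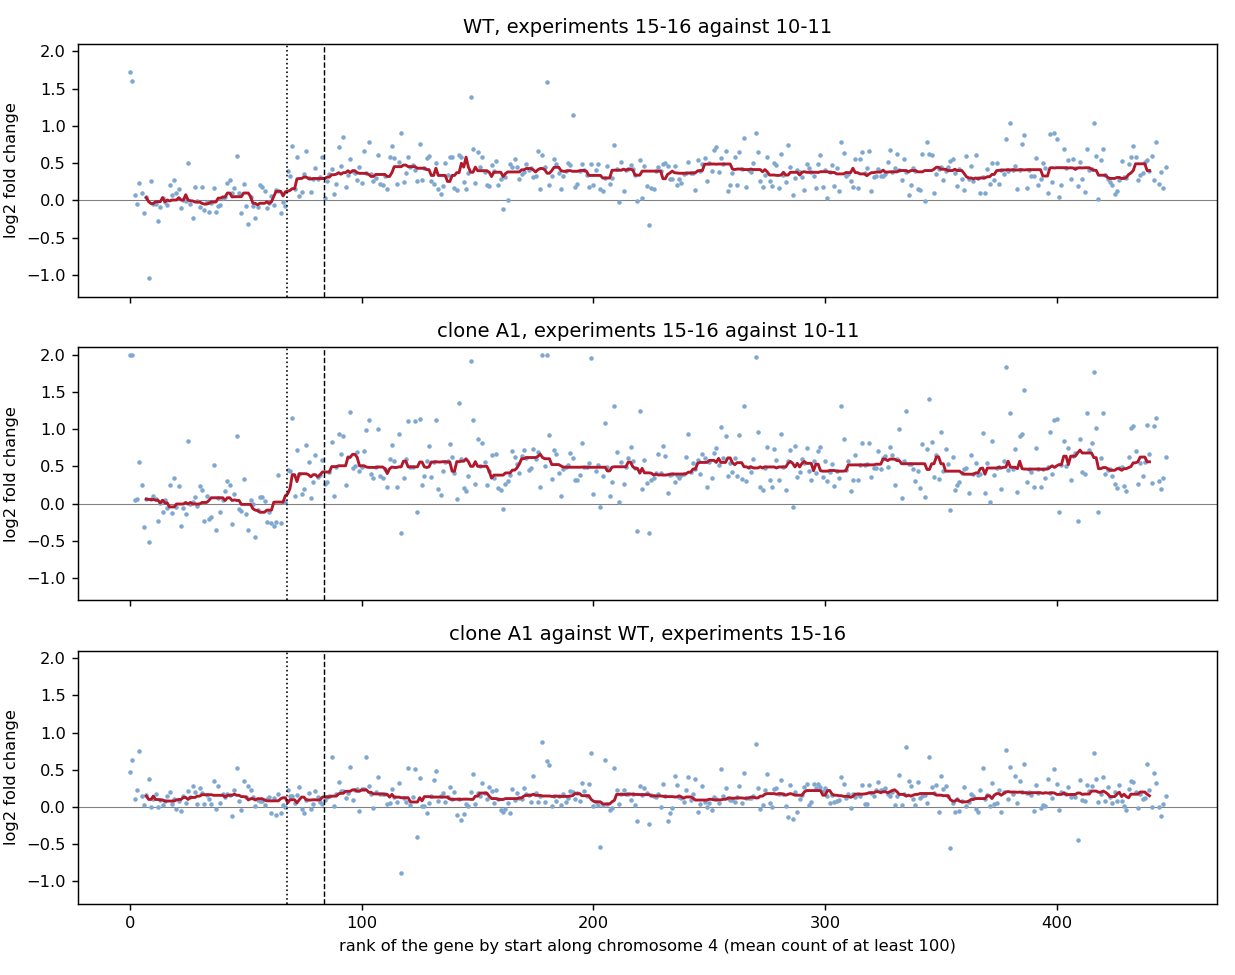
Log2 fold change of chromosome 4 genes with a mean count of at least 100, ordered by start. Points are genes (drawn at the limit where above 2), the red line is the running median of 15 genes, the dotted line marks WDR1 and the dashed line 20 Mb. The running median steps up after WDR1 in WT and clone A1 between experiment pairs and shows no step in the late comparison of clone A1 with WT.

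Among the other nuclear chromosomes, the median shift ran from −0.20 on chromosome 19 to 0.081 on chromosome 16 in WT, and from −0.30 to 0.18 on the same chromosomes in clone A1. The 13 mitochondrial genes had 0.35 and 0.54. Of 144 windows of 20 Mb elsewhere with at least 20 genes, 1 exceeded the members' median in each group, on chromosome 13 from 60 to 80 Mb (24 genes, 0.92 in WT and 1.45 in clone A1). In clone A1 other windows came close, with chromosome 16 from 20 to 40 Mb (121 genes) at 0.49 and chromosome 9 from 120 to 140 Mb (204 genes) at 0.40, and 7 of the 144 windows were above 0.3, where 1 was in WT.

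**Figure D4:**
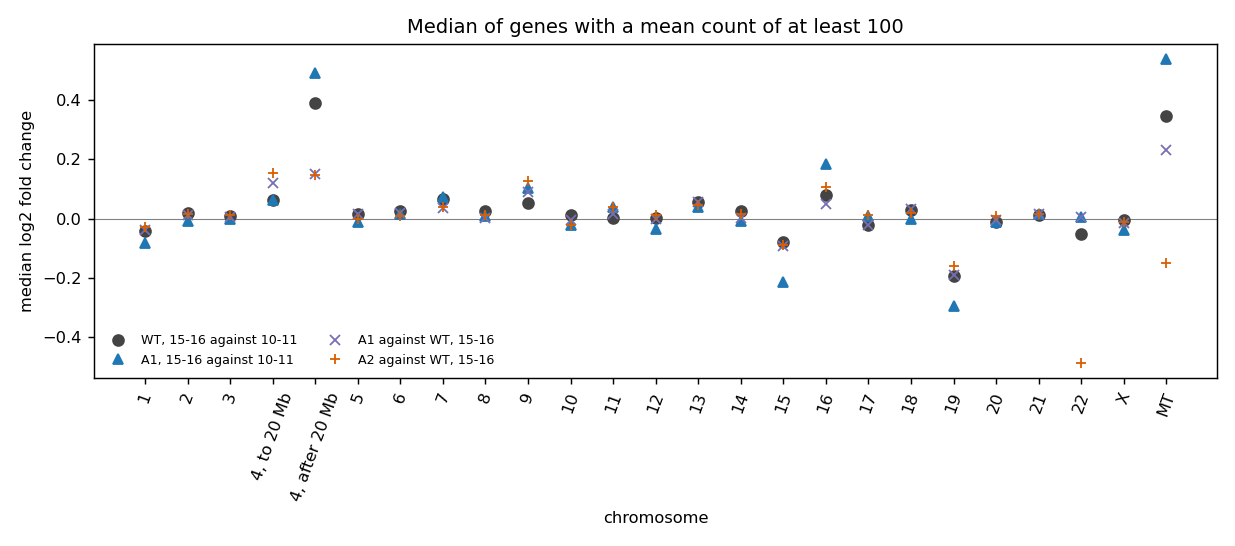
Median log2 fold change by chromosome for genes with a mean count of at least 100, in 4 comparisons. Chromosome 4 after 20 Mb lies at 0.39 (WT) and 0.49 (clone A1) between experiment pairs, where the other nuclear chromosomes lie between −0.30 and 0.18. Chromosome 22 lies at −0.49 for clone A2 against WT.

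The members with the highest mean counts showed the shift at a modest size. PAICS had 364 and 306 CPM in early WT, 479 and 482 in late WT, 372 and 340 in early clone A1, 584 and 543 in late clone A1, and 572 and 573 in late clone A2. All libraries of experiments 15 and 16 were above all of experiments 10 and 11. HNRNPD, an RNA-binding protein that acts on mRNA stability, had 281 and 296 CPM in early WT, 384 and 410 in late WT, 299 and 283 in early clone A1, 406 and 411 in late clone A1, and 419 and 404 in late clone A2. Its groups did not overlap between the experiment pairs either. HMGB2, a chromatin protein, had log2 fold changes of 0.28 (SE 0.06) in WT and 0.42 (SE 0.06) in clone A1, and H2AZ1, the histone variant H2A.Z, of 0.38 (SE 0.07) and 0.52 (SE 0.07). CCNI, cyclin I, had 0.39 (SE 0.07) and 0.38 (SE 0.07). UCHL1, a ubiquitin hydrolase, had 0.37 (SE 0.07) and 0.59 (SE 0.07). The remaining 3 were nearer to 0, with HNRNPDL at 0.22 (SE 0.06) and 0.11 (SE 0.06), DHX15, an RNA helicase, at 0.09 (SE 0.06) and 0.10 (SE 0.06), and SLIT2, a secreted ligand of ROBO receptors, at 0.03 (SE 0.09) and 0.27 (SE 0.09). Split by mean count, the lowest, middle and highest groups had WT medians of 0.44, 0.40 and 0.35.

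The shift was seen in each of 9 functional lists of chromosome 4 genes, which hold 164 of the members and were chosen with earlier results known. Over all members, 66.5% passed the edgeR threshold upwards in WT and 85.2% in clone A1, against 8.61% and 20.4% of all genes, and since the region was chosen on this shift, these shares and the counts by list are descriptions from which nothing is read. HPGD and PPARGC1A of the metabolic list and PRKG2 of the receptor list met the mean count of 100 only through the late libraries. Of 19 cell cycle, replication and repair members, 17 passed the edgeR threshold upwards in WT (median 0.42), and 16 upwards and 1 downwards in clone A1 (0.47). MAD2L1, a spindle checkpoint protein, had 0.43 (SE 0.09) and 0.44 (SE 0.09), and CENPE, a kinetochore motor, 0.42 (SE 0.07) and 0.33 (SE 0.07). ABRAXAS1, a subunit of a BRCA1 complex, was the member that was lower in clone A1, at −0.37 (SE 0.12). Of 30 metabolic and mitochondrial members, 25 passed upwards in each group (medians 0.42 and 0.55). Of 17 RNA processing members, 13 and 14 passed upwards (0.36 and 0.49), and of 22 ubiquitin and protein turnover members, 16 and 20 (0.36 and 0.46). Of 20 chromatin and transcription members, 8 passed in WT and 16 in clone A1 (0.26 and 0.38), among them SMARCA5, a chromatin remodeller, at 0.44 (SE 0.07) and 0.54 (SE 0.07). Of 18 vesicle traffic members, 11 and 15 passed (0.36 and 0.52), and of 17 adhesion and cytoskeleton members, 8 and 17 (0.27 and 0.49). Of 16 receptors and signal transducers, 11 and 15 passed (0.43 and 0.61), among them KIT, a receptor tyrosine kinase, at 0.68 (SE 0.11) and 1.12 (SE 0.11). Of the 25 growth factor and chemokine genes, 11 were in the counts, with medians of 0.69 and 0.93 and 10 of 11 above 0 in each group. Only 5 of them met the count rule, with 4 and 5 passing, and BTC and CXCL8 met it through the late libraries, so the counts of these 5, given here and for the later comparisons, are descriptions only. EGF, a growth factor under the limit, was at −0.41 and −0.67, and CXCL3, a chemokine also under it, at 0.35 and 0.45, neither passing in either group.

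Some of the largest shifts belonged to genes with few counts. BTC, betacellulin, a ligand of the EGF receptor, had 0.976 and 1.26 CPM in early WT, 3.58 and 3.2 in late WT, 0.477 and 1.09 in early clone A1, 4.71 and 5.67 in late clone A1, and 4.1 and 3.96 in late clone A2. Its log2 fold change between experiment pairs was 1.59 (SE 0.26) in WT and 2.73 (SE 0.27) in clone A1. BTC had 23 to 62 counts in the early libraries, a mean of 45 against 191 in the late ones, so it met the mean count of 100 only through the libraries where it was high and had to differ. The same held for 12 members in all, HPGD and CXCL8 among them, with an early mean under 100. Without them the median of the other 352 was 0.38 in WT and 0.49 in clone A1. PDGFRA, the PDGF receptor alpha, had 2.88 and 2.59 CPM in early WT, 7.71 and 6.71 in late WT, 1.78 and 2.59 in early clone A1, 7.24 and 9.27 in late clone A1, and 6.66 and 6.79 in late clone A2. Every library of experiments 15 and 16 was above every library of 10 and 11 for both genes. HPGD, which degrades prostaglandins, had 1.04 (SE 0.19) and 1.77 (SE 0.19), and STBD1, a glycogen-binding protein, 1.14 (SE 0.19) and 0.62 (SE 0.18). A value above 1 was reached by 5 members in WT and 35 in clone A1, of which 3 and 7 had an early mean count under 100. At the other end, 5 members were below 0 in WT and 11 in clone A1. ARHGAP24, a GTPase-activating protein, had −0.33 (SE 0.20) and −0.40 (SE 0.20), and NOA1, a mitochondrial GTPase, −0.11 (SE 0.08) and −0.08 (SE 0.08). SEC31A had 95.4 and 95.2 CPM in early WT, 93.8 and 93.7 in late WT, 95 and 94.6 in early clone A1, 95.6 and 96.4 in late clone A1, and 100 and 102 in late clone A2. Clone A2 held the highest values, and early and late libraries of clone A1 differed little.

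**Figure D5:**
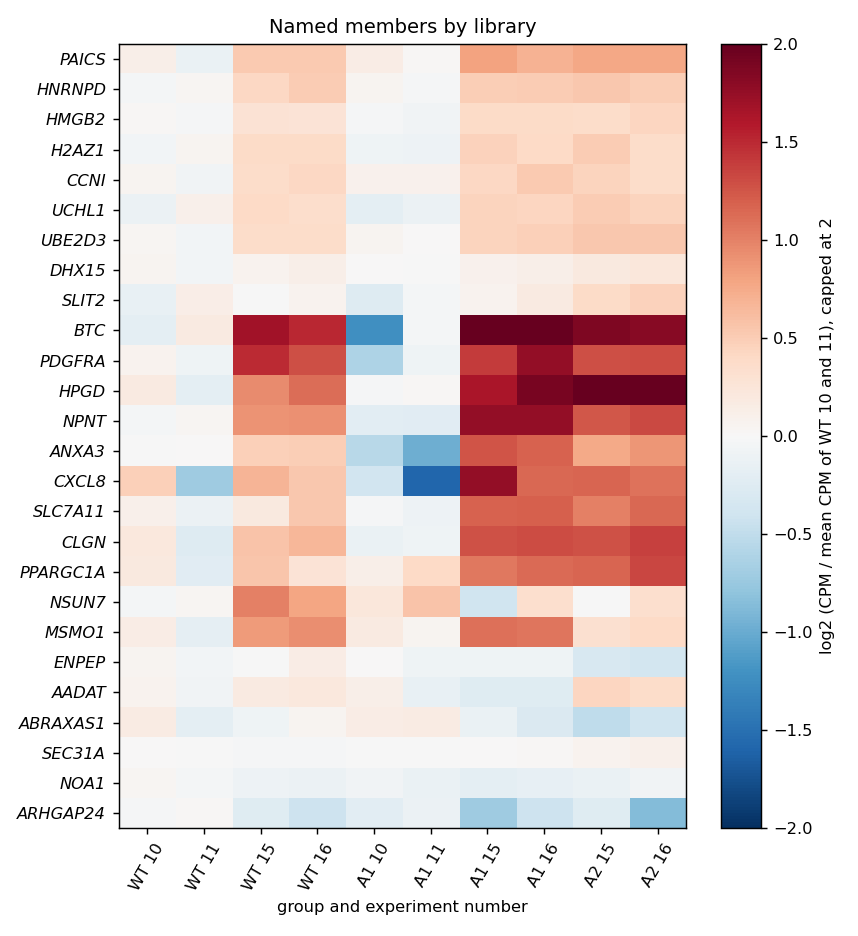
Log2 ratio of each named member's CPM to its mean in WT experiments 10 and 11, by library, with colours capped at 2. PAICS to UBE2D3 are moderately higher in all 6 libraries of experiments 15 and 16, and BTC and PDGFRA strongly so. SEC31A and NOA1 stay near 0. HNRNPDL, which is not drawn, is at 332 and 333 CPM in clone A2, within the range of the early libraries.

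In experiments 10 and 11, clone A1 and WT had close levels over the members. The median log2 fold change was 0.019, 217 of 364 were above 0 (a median of −0.047 with 97 of 362 above 0 once a trend on GC content and length was removed), and 0 members passed the edgeR threshold in either direction, where 0.194% of all genes did (0.0287% upwards and 0.165% downwards). At an unadjusted p under 0.05, 12 of 364 members and 1476 of 13920 genes passed, and DESeq2 called 1 higher and 1 lower. No overlap between libraries was seen upwards for 43 members and downwards for 46, against 19% and 19.4% of all genes. The direction of the median rested on single WT libraries, with 0.072 without WT of experiment 10 and −0.033 without WT of 11. Leaving out WT of experiment 10 gave 11 higher and 5 lower calls. The genes up to WDR1, outside the members, had a median of 0.13 in this comparison.

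In experiments 15 and 16, the members were on the whole somewhat higher in clone A1 than in WT. The median was 0.15 (1.11-fold) and 320 of 364 were above 0. The edgeR threshold was passed upwards by 40 members and downwards by 3, against 3.95% and 4.29% of all genes (8.24% in either direction). Both late clone A1 libraries exceeded both late WT libraries for 237 members and lay under them for 13, against 27.4% and 26.4% of all genes. The genes of chromosome 4 up to WDR1, whose median between the experiment pairs was near 0, had a median of 0.12 in this comparison, and 6 of the 144 windows elsewhere exceeded the members' median. NPNT, nephronectin, an extracellular matrix ligand of integrins, had 9.13 and 9.73 CPM in early WT, 17.6 and 17.7 in late WT, 8.17 and 8.09 in early clone A1, 31.7 and 32 in late clone A1, and 22.4 and 23.4 in late clone A2. Clone A1 was highest in experiments 15 and 16, clone A2 intermediate and WT lowest, with a clone A1 value of 0.85 (SE 0.08, edgeR adjusted p = 1.39e-05). SLC7A11, the cystine and glutamate antiporter, had 11.7 and 10 CPM in early WT, 12.5 and 15.7 in late WT, 10.7 and 10.2 in early clone A1, 24.5 and 24.7 in late clone A1, and 21.7 and 24 in late clone A2. Both clones lay above WT in experiments 15 and 16, clone A1 by 0.80 (SE 0.11, edgeR adjusted p = 0.00033). ANXA3, an annexin, rose by 0.72 (SE 0.16, edgeR adjusted p = 0.00977), DCHS2, a cadherin-family gene, by 0.77 (SE 0.17, edgeR adjusted p = 0.0118), and HPGD by 0.73 (SE 0.18, edgeR adjusted p = 0.0175). DCHS2 and HPGD had early mean counts of 73 and 69.75 and became members only through the late libraries, so their values are descriptions only. Those lower were NSUN7, of an RNA methyltransferase family, at −0.88 (SE 0.24, edgeR adjusted p = 0.0293), PRDM8, a transcriptional regulator, at −0.53 (SE 0.14, edgeR adjusted p = 0.0236), and AADAT, a kynurenine aminotransferase, at −0.44 (SE 0.10, edgeR adjusted p = 0.0131). By list, the calls upwards were 5 of 30 metabolic, 4 of 17 adhesion, 3 of 16 receptor, 3 of 22 ubiquitin, 1 of 19 cell cycle, 1 of 20 chromatin, 1 of 18 vesicle, 0 of 17 RNA processing and 0 of 5 growth factor members. The count of calls depended on single libraries. Without WT of experiment 15 or 16 the calls upwards were 7 and 16, without A1 of 15 or 16 they were 13 and 11, and without WT of 10 or 11 they were 81 and 81. Downwards they were 0 without WT of 15 or 16 or A1 of 15, and 1 without A1 of 16.

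Clone A2 against the same WT libraries gave a median of 0.15 (1.11-fold), with 316 of 364 above 0. The 68 genes up to WDR1 had the same rounded median of 0.15, with 62 above 0, and 7 of the 144 windows elsewhere exceeded the members' median. The threshold was passed upwards by 63 members and downwards by 4, against 7.33% and 9.07% of all genes (16.4% in either direction). Both clone A2 libraries exceeded both late WT libraries for 244 members and lay under them for 15, against 31% and 29.7% of all genes. HPGD had 1.67 and 1.29 CPM in early WT, 2.85 and 3.22 in late WT, 1.45 and 1.5 in early clone A1, 4.59 and 5.48 in late clone A1, and 5.92 and 5.95 in late clone A2. It rose in clone A2 by 0.97 (SE 0.17, edgeR adjusted p = 0.00119). PPARGC1A, a coactivator of mitochondrial gene expression, rose by 0.83 (SE 0.20, edgeR adjusted p = 0.00949), SPOCK3, a secreted proteoglycan, by 0.77 (SE 0.13, edgeR adjusted p = 0.000701), CLGN, an endoplasmic reticulum chaperone, by 0.71 (SE 0.11, edgeR adjusted p = 0.000426), and BEND4 by 0.70 (SE 0.11, edgeR adjusted p = 0.000351). HPGD and PPARGC1A, with early mean counts of 69.75 and 87.25, became members only through the late libraries, so their values are descriptions only. MSMO1, an enzyme of cholesterol synthesis, had 60.5 and 48.2 CPM in early WT, 98 and 103 in late WT, 61.6 and 56.3 in early clone A1, 116 and 114 in late clone A1, and 68 and 71.3 in late clone A2. In clone A2 it lay between the earlier and the later WT libraries, at −0.53 (SE 0.09, edgeR adjusted p = 0.000717) against WT of the same experiments. NSUN7 had −0.72 (SE 0.23, edgeR adjusted p = 0.0434), ABRAXAS1 −0.43 (SE 0.12, edgeR adjusted p = 0.021) and ENPEP, an aminopeptidase, −0.41 (SE 0.09, edgeR adjusted p = 0.00515). By list, the calls upwards were 8 of 22 ubiquitin, 7 of 30 metabolic, 6 of 17 adhesion, 2 of 20 chromatin, 2 of 18 vesicle traffic, 2 of 16 receptor, 1 of 5 growth factor, 0 of 19 cell cycle and 0 of 17 RNA processing members, and the 1 call downwards among them was ABRAXAS1 of the cell cycle list. Without A2 of experiment 15 or 16 the calls upwards were 39 and 16, without WT of 15 or 16 they were 18 and 32, and without WT of 10 or 11 they were 95 and 98. Downwards they were 1 without WT of 16 or A2 of 16, and 2 without A2 of 15. The clone A1 and clone A2 comparisons use the same WT libraries, so their likeness is not read as a repeat.

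Set directly against each other in experiments 15 and 16, the clones had a median difference of 0.0023 (clone A2 minus clone A1), with 184 members above 0 and 180 below. Its sign also turned with single libraries, from −0.024 without A2 of experiment 16 to 0.027 without A2 of 15. The threshold was passed upwards by 2 and downwards by 4 members, against 1.07% and 3.07% of all genes (4.14% in either direction). The libraries did not overlap for 85 members upwards and 85 downwards, against 24.3% of all genes each way. AADAT was higher in clone A2 by 0.64 (SE 0.10, edgeR adjusted p = 0.000803) and PLA2G12A, a secreted phospholipase, by 0.33 (SE 0.07, edgeR adjusted p = 0.0118). Those lower in clone A2 were MSMO1 at −0.72 (SE 0.09, edgeR adjusted p = 0.000109), NPNT at −0.48 (SE 0.08, edgeR adjusted p = 0.0018), ELOVL6, a fatty acid elongase, at −0.29 (SE 0.08, edgeR adjusted p = 0.0462), and PKD2, polycystin-2, at −0.28 (SE 0.07, edgeR adjusted p = 0.0383). Without WT of experiment 10 or of 11 the calls were 5 upwards and 7 downwards. Those upwards were 1 without A1 of 15 or A2 of 16, and those downwards were 2 without WT of 16 or without any 1 clone library.

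The log2 fold change of clone A1 against WT, with its sign, was higher over the members in experiments 15 and 16 than in 10 and 11. The median difference was 0.14, with 299 of 364 above 0. Without WT of experiment 10 the median was 0.082. The test of this difference was passed by 12 members, all upwards, against 1.56% of all genes upwards and 0.941% downwards (2.5% in either direction). ANXA3 had 2.8 and 2.84 CPM in early WT, 3.93 and 3.98 in late WT, 1.91 and 1.44 in early clone A1, 6.72 and 6.36 in late clone A1, and 4.78 and 5.17 in late clone A2. Clone A1 was below WT in experiments 10 and 11 and above it in 15 and 16, with a difference of 1.47 (SE 0.24, edgeR adjusted p = 0.00375). NPNT had 1.07 (SE 0.13, edgeR adjusted p = 0.000176), SLC7A11 0.86 (SE 0.16, edgeR adjusted p = 0.00957), CLGN 0.78 (SE 0.16, edgeR adjusted p = 0.0178) and PDLIM3, a PDZ and LIM domain protein, 0.77 (SE 0.14, edgeR adjusted p = 0.00791). Of the 12, 4 were among the 17 adhesion and cytoskeleton members and 1 among the 18 vesicle traffic members, and 0 were in the other 7 lists. The lists were chosen with earlier results known. Without A1 of experiment 10, 15 or 16 the calls upwards were 3, 7 and 6, without WT of 15 they were 7, and without WT of 10 or 11 they were 21 and 28. Downwards there were 4 without WT of 10, and 1 without WT of 11 or A1 of 16.

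Members had AT-rich transcripts, with a median GC content of 41.3% against 48.5% outside chromosome 4. The value was known for 362 of 364 members. After a trend on GC content and length was removed, the median was 0.31 in WT and 0.48 in clone A1 between the experiment pairs, with 355 and 352 of 362 above 0. For clone A1 against WT it turned to −0.047 in experiments 10 and 11, with 97 of 362 above 0, and was 0.13 in 15 and 16, and for clone A2 against WT 0.16. The 3101 genes outside chromosome 4 with a GC content of 38.3% to 44.5% had medians between the experiment pairs of 0.052 in WT and −0.0076 in clone A1, and of 0.078 between clone A1 and WT in the early libraries.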

How the data were processed

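RNA from spheroids was converted to libraries with the TruSeq Stranded mRNA kit and sequenced by a service provider for the authors, 10 libraries in all. The deposited file holds whole-number counts per gene for 13920 NCBI gene identifiers, and no gene has a count of 0 in any library. HISAT2, StringTie and GRCh38 are named in the submitters' processing notes, and the counting program is not given in the sources used here. The labels and the study's methods name different RNA extraction kits. Total counts were 40077369 to 51311482 per library, and 0 sample columns were left unused.

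Gene identifiers were matched to RefSeq positions (GRCh38.p14): 13885 matched and 35 did not. Counts were analysed with edgeR 4.0.16 in R 4.3.3 (TMM, robust quasi-likelihood, all genes). The fit had 5 groups (WT and clone A1 in experiments 10-11 and 15-16, clone A2 in 15-16) and 5 residual degrees of freedom. Benjamini-Hochberg adjustment ran over all genes with a threshold of 0.05. DESeq2 1.42.0, which the study used, was an alternative. On simulated counts for the WT comparison of experiment pairs (13920 genes), edgeR found 99 of 100 genes changed by a log2 value of 1 and 86 of 100 changed by 0.5, with 26 false calls. The changed genes were drawn from other genes with a mean count of at least 100. Counts were drawn independently, with no effect shared within a library or experiment, so these rates need not hold for the data.

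The members, lists and tests were chosen with earlier results of these data known. Named genes are those of highest mean count, those with the largest called changes without overlap between libraries, the genes beside each limit, and examples from the lists. SEC31A, THAP9, CISD2 and list examples other than those of highest count were chosen after their values were seen. Alternatives were another normalization and test, count filters, a stricter member rule, the experiment number as a block, and leaving out each library. Fits of each experiment pair alone, a GC and length trend and genes after WDR1 were added after the data were seen. Precision is limited by 2 libraries per group and experiment pair. 1 member is counted in the totals but not reported by name here.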

Additional observations from a re-analysis of the deposited data

Results flagged for a closer look

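For 12 members the effect of clone A1 against WT differed between experiments 10-11 and 15-16 in a test of the difference itself, on the log2 scale and with an edgeR adjusted p under 0.05. These are 3.30% of the 364 members, where 348 of 13920 genes (2.5%) passed the same test. The count is thus near the share of all genes, and nothing is read from it. The differences were 1.47 for ANXA3, 1.07 for NPNT, 0.86 for SLC7A11, 0.785 for CLGN and 0.775 for PDLIM3. They were 0.735 for ERVMER34-1, 0.72 for PARM1, 0.696 for BEND4, 0.674 for SEL1L3 and 0.634 for DCLK2. PCDH10 had 0.594 and LIMCH1 0.525. All 12 differences were above 0, so the log2 fold change of clone A1 against WT, with its sign, was higher in experiments 15 and 16. This does not mean a larger effect in size. For ANXA3, clone A1 was below WT in experiments 10 and 11 and above it in 15 and 16.

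ENPEP in clone A1 of experiment 10 stood apart from the other 3 clone A1 libraries, at 19.4 CPM against 18.3, 18.3 and 18.3 CPM, with a gap of 0.972 of the group's range. It was 1 of 90 groups of 4 libraries examined, and chance gives about 1 in 20 such groups.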

How the results depend on the processing

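None of the 97 gene calls followed changed direction under the alternatives run. The medians for clone A1 against WT in 10-11 and for clone A2 against A1, both near 0, changed sign under some, the latter to −7.2e-05 with the count filter and to −0.000115 with experiments 15 and 16 alone. Another size factor method, scaling without chromosome 4, a mean count filter of 10, keeping the ribosomal genes and starting after WDR1 kept each median within the spread between libraries and each count close to its value. DESeq2 gave, for clone A1 against WT in experiments 10-11, 1 higher and 1 lower call, for clone A2 against A1 4 higher, and for the difference of effects 1 lower. With only members of a mean count of at least 1000 (198 members), the calls in WT between experiment pairs were 145 higher, and in clone A1 177 higher and 0 lower. Over those members, clone A1 against WT in 15-16 had 21 higher and 0 lower, clone A2 against WT 31 higher and 1 lower, clone A2 against A1 1 higher, and the difference 5 higher. Fewer genes were counted there. Experiments 15 and 16 alone gave 77 higher for clone A1 against WT and 4 higher for clone A2 against A1. Removing the GC and length trend gave medians of 0.31 in WT between pairs and −0.047 for clone A1 in 10-11. The cause was not tested.

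The experiment number did not pair the libraries under the rule used: correlations of deviations from the group means were 0.0997, 0.136, 0.154 and 0.09996. With the number as a replicate block, members called were 2 lower in clone A1 between pairs, 1 higher and 2 lower for clone A1 in 10-11, 109 higher for clone A1 and 124 higher for clone A2 in 15-16, 6 higher and 8 lower for clone A2 against A1, and 32 higher and 2 lower for the difference. Over all genes the block moved calls from 2276 to 4039 in WT and from 5485 to 6799 in clone A1 between pairs, from 27 to 382 for clone A1 in 10-11, from 1147 to 2411 for clone A1 and from 2283 to 3673 for clone A2 in 15-16, from 576 to 1213 for clone A2 against A1, and from 348 to 1247 for the difference.

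Leaving out each library in turn, where a lone library is assumed to vary like the other groups, gave these ranges. WT between pairs had medians of 0.33 to 0.44, 134 to 263 higher and 0 lower. Clone A1 between pairs had 0.48 to 0.53, 268 to 324 higher and 0 to 2 lower. Clone A1 against WT had −0.033 to 0.072, 0 to 11 higher and 0 to 5 lower in 10-11, and 0.13 to 0.18, 7 to 81 higher and 0 to 4 lower in 15-16. Clone A2 against WT had 0.12 to 0.18, 16 to 98 higher and 1 to 5 lower. Clone A2 against A1 had −0.024 to 0.027, 1 to 5 higher and 2 to 7 lower. The difference had 0.082 to 0.16, 3 to 28 higher and 0 to 4 lower. Of 1491 values of 97 gene calls under the alternatives, 135 no longer passed the threshold and 0 reversed.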
